A study of Mus musculus with 7 samples.

Results

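The genes described here are 10 direct targets and feedback regulators of the Wnt pathway, namely Axin2, Nkd1, Rnf43, Znrf3, Notum, Wif1, Apcdd1, Sp5, Lef1 and Tnfrsf19. They were followed by name across every array, and each was found through the RefSeq symbol of the transcript that its probe was designed for. Of 55681 probes, 13 belonged to these genes, which are 10 of the 20887 genes that had a symbol on the array. Of the 10 genes, 9 were well above background on at least 2 of the 7 arrays and entered the fit. No array had Apcdd1 well above background, so it was not tested.

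The study deleted Mob1a and Mob1b, adaptor proteins of the Hippo pathway, in intestinal epithelial cells of male C57BL/6J mice 8 weeks of age, and its title raises the question of how Wnt signalling responds. All mice, backcrossed for 6 generations, carried floxed alleles of both genes (Mob1a f/f and Mob1b f/f). Per the labels all received tamoxifen at 80 mg/kg per day on 2 days. The knockout mice also carried Villin-creERT2, a Cre recombinase that tamoxifen activates and that the Villin promoter drives in the intestinal epithelium. They were sampled 4 days (2 mice), 7 days (2 mice) or 10 days (1 mouse) after tamoxifen. The 2 control mice lacked Cre, and their labels place them 7 days after tamoxifen, whereas the design text names a time of 0. The design text does not mention day 10. Since the controls had no CreERT2, its own effect cannot be told apart from that of the deletion, and a p-value at day 10 rests on the spread of the other groups. Cells were released from the proximal intestine with 2 mM EDTA, and each array measured the total RNA of 1 mouse.

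Wnt ligands bind Frizzled and Lrp receptors and thereby keep beta-catenin from being degraded, after which beta-catenin enters the nucleus and works with Tcf and Lef factors to switch on target genes. In the small intestine this signal is strongest at the base of the crypts, where it maintains stem cells and Paneth cells. Many of the targets dampen the pathway themselves, at the level of the ligand, of the receptor or of beta-catenin, so that their RNA is widely read as a gauge of Wnt activity.

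Tcf and Lef factors bind DNA at sites with the core CTTTGA, which reads TCAAAG on the opposite strand. Counted were RefSeq promoter windows (GRCm38.p6, 250 bases before to 50 after a transcript start) of 7 of the 10 genes, with 12 starts. Apcdd1, Notum and Znrf3 had no counted window, so these counts describe a subset of the genes. The core was present on either strand in 3 of these 12 windows, from Sp5, Lef1 and Tnfrsf19, against 16% of all 32851 windows of the same length. Of the genes with a counted window that were called lower at day 10, Sp5 and Tnfrsf19 had a match. Axin2, Nkd1 and Wif1 had none. Of those not called at day 10, Lef1 had matches and Rnf43 had none. Lef1 was below background in control and at day 10. A relation between matches and changes was not tested. The windows of 3 genes, chosen after their values were seen, are shown as examples with the core (Sp5, Tnfrsf19) and without it (Rnf43). Capitals mark the core. The Sp5 window is at chr2:70474673-70474972 on the plus strand, the Rnf43 window at chr11:87662837-87663136 on the plus strand and the Tnfrsf19 window, of its start 2, at chr14:61037938-61038237 on the minus strand.
Sp5: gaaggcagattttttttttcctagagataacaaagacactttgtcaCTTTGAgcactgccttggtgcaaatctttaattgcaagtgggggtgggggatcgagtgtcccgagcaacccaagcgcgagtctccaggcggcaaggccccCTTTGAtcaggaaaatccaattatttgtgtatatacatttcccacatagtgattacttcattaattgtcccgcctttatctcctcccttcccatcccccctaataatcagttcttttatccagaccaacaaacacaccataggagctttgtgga
Rnf43: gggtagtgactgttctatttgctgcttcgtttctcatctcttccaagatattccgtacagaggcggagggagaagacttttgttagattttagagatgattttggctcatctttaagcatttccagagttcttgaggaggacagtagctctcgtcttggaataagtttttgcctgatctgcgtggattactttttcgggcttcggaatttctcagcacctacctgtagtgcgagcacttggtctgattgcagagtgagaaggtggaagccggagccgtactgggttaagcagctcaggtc
Tnfrsf19: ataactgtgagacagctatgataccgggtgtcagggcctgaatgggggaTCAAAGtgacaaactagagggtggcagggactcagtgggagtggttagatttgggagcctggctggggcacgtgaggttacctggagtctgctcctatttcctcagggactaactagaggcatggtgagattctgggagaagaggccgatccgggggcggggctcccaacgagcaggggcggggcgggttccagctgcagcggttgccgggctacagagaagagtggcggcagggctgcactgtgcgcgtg
In the Sp5 window the matches began at -204 and -104 relative to the transcript start, both on the strand of the gene. In the Tnfrsf19 window the match began at -201, on the opposite strand. The window of start 4 of Lef1 held matches beginning at -180 and -120, both on the opposite strand. The core of the TEAD factors that act with the Hippo effectors, GGAATG or CATTCC, was in 0 of the 12 windows, against 14.7% of all windows. A match describes letters only, and bound factors were not measured.

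Throughout, a level is the log2 signal of a probe minus the 75th percentile of log2 signals on its array, so that 0 is the brightness of that percentile. Levels are compared between arrays for the same probe and never between probes. A difference is the difference of mean levels, given with its SE from the fit. A gene was called where the adjusted p of limma, after Benjamini-Hochberg over all 24760 features, was under 0.05. The lowest level at which any probe counted as well above background lay between -4.72 and -4.13 depending on the array. Where a gene was below background in 1 group, its change is given as at least a fold. By this convention the dim group is set to that lowest level or to the gene's own level if higher. The fold is not a strict limit, since some probes were not well above background at higher levels. Examples are Nkd1 at -3.5 and Tnfrsf19 at -3.73, both on control replicate 1.

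The arrays had 45.2 to 51.3% of probes well above background and no saturated spot. The day 10 array was brighter, with a 75th percentile of the signal of 545 against 315 to 395 on the other 6. Mob1b fell by 1.59 ± 0.22 at day 7 (adjusted p = 0.014) and fell by 1.64 ± 0.27 at day 10 (adjusted p = 0.007), and differed by -1.43 ± 0.22 at day 4 (adjusted p = 0.19). The only Mob1a probe was dim in control, with levels of -3.87 and -3.71, and read higher at day 10 by 1.60 ± 0.30 (adjusted p = 0.011). Where these probes lie relative to the deleted exons was not determined. All 7 epithelial markers were well above background on all arrays, and none was called at day 4 or day 7. At day 10 Vil1, whose promoter drives the Cre, fell by 1.42 ± 0.26 (adjusted p = 0.01), and Cdh1 rose by 1.29 ± 0.25 (adjusted p = 0.012). All arrays shared 1 slide, with control and day 4 in row 1 and day 7 and day 10 in row 2. Slide row therefore cannot be told apart from the differences of day 7 and day 10 from control, or of day 7 from day 4, while day 4 against control and day 10 against day 7 lie within a row.

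At day 4 none of the 9 measured genes was called. Notum and Lef1 had the largest differences, in opposite directions. The count of 0 of 9 stands beside 0.0323% of all features called, all of them higher and 0% lower. At an unadjusted p under 0.05 there were 2 of 9 genes, Notum and Lef1, beside 6.23% of all features. Both day 4 arrays were below both control arrays for 4 genes (26.7% of all features) and above for 2 (10.9% of all features). The median difference of the 9 genes was -0.23, and that of all features was -0.082.

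By day 7 Sp5 and Rnf43 had fallen, with log2 differences of -1.71 and -1.59, and no gene was called higher. Wif1 was called lower as well, but 1 control array and no day 7 array had it well above background, so the size of its difference was not measured. This is 3 of 9 genes called, or 2 apart from Wif1, beside 7.46% of all features called in either direction, 4.5% lower and 2.96% higher. Notum and Axin2 lay below control on both arrays without passing. The 2 day 7 arrays were below both control arrays for 5 genes (32.4% of all features) and above for 1, Lef1 (21.8% of all features). The median difference of the 9 genes was -0.96, and that of all features was -0.083.

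On the day 10 array Sp5, Notum, Nkd1, Tnfrsf19, Wif1 and Axin2 were called lower. The 9 genes read below both control arrays, an order that carries no information for Lef1, which was at background on these 3 arrays, and little for Wif1, which was above it on 1 of them. The calls are 6 of 9 genes, all lower, beside 28.1% of all features called in either direction, 17.6% lower and 10.4% higher. Nkd1 and Tnfrsf19, like Wif1, were well above background on 1 control array and not on the day 10 array. Apart from these genes 3 calls remain, Sp5, Notum and Axin2, which were well above background on all of these arrays. A lone array lies below both controls often, for 50.4% of all features, and above them for 36.8%. The median difference of the 9 genes was -2.04, and that of all features was -0.148. Under other scalings the all-feature median at day 10 moved to -0.326 (array medians) or 0.079 (probes detected on all arrays). With the latter scaling 49.1% of all calls at day 10 were higher, against 2586 higher and 4367 lower calls as given above, and the 9 genes kept 4 calls, all lower.

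**Figure D1:**
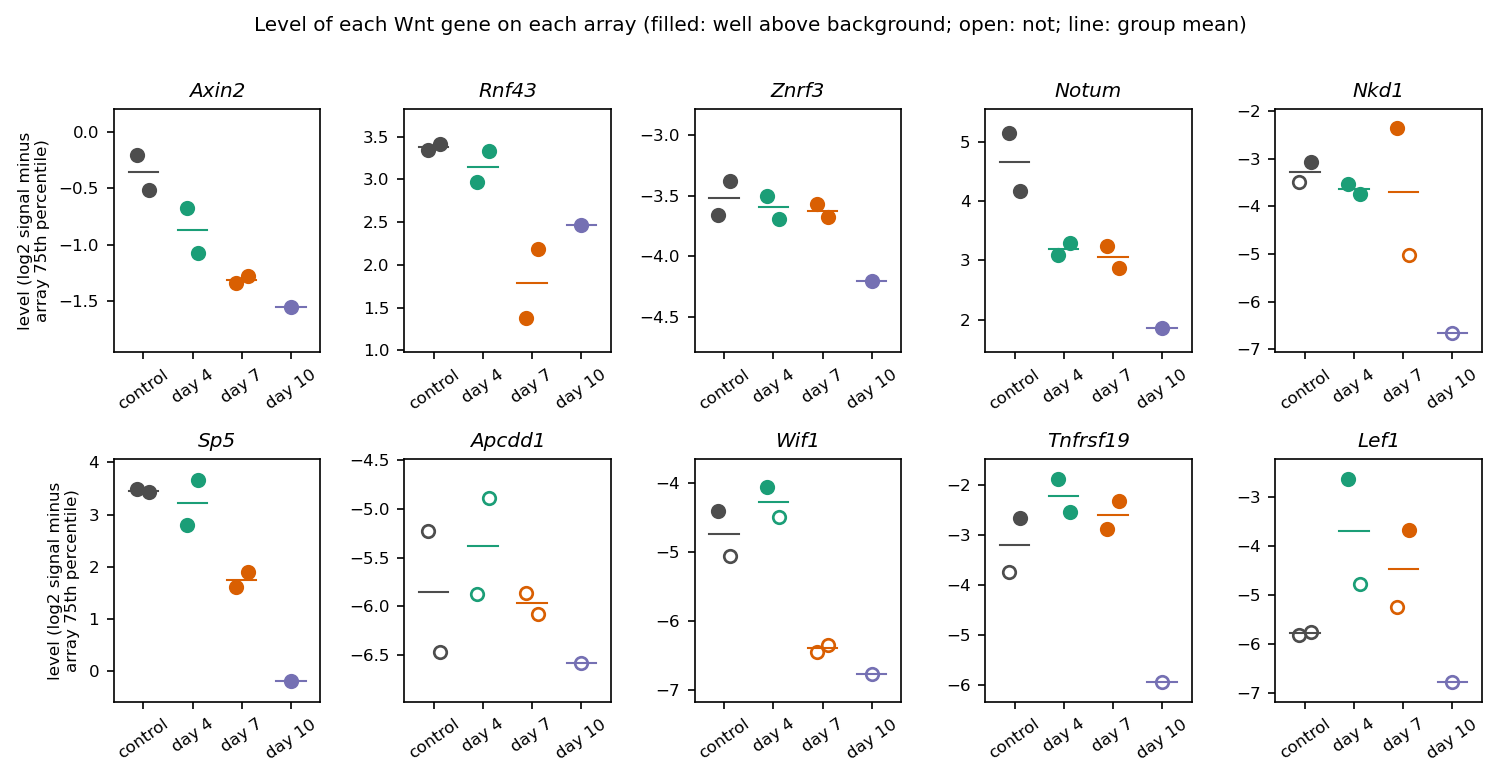
Level of each gene on each array (y axis, log2 signal minus the 75th percentile of the array) by group (x axis), with 1 point per mouse and a line at the group mean. Filled points are well above background and open points are not, the y axis differs between panels and spans at least 2 log2 units. Sp5, Notum and Axin2 lie lowest at day 10, Rnf43 lies lowest at day 7, and all Apcdd1 points are open.

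Axin2 encodes a scaffold of the complex that marks beta-catenin for degradation, and is the classical negative feedback target of the pathway. Its level was -0.2 and -0.51 in control, -0.67 and -1.07 at day 4, -1.34 and -1.28 at day 7, and -1.55 at day 10. The groups did not overlap and their means fell in the order of time, although neighbouring time points did not differ beyond their spread. Against control, day 4 was lower by a log2 difference of -0.52 ± 0.25, with an adjusted p of 0.86, and day 7 by -0.96 ± 0.25, with an adjusted p of 0.076. At day 10 Axin2 fell by 1.2 ± 0.3, which is 2.3-fold (adjusted p = 0.03, limma). That call ended with the adjusted p at 0.12 without control replicate 1 and 0.054 without control replicate 2, and at 0.061 with scaling to probes detected on all arrays. A dimmer Axin2 probe, well above background on 4 arrays, ranged from -4.51 to -3.27 with log2 differences of -0.10 ± 0.38 (day 7) and -0.74 ± 0.46 (day 10) from the control mice. With the mean of both probes the day 10 difference was -0.97 (adjusted p = 0.055).

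Nkd1 encodes a protein that binds Dishevelled and restrains the signal downstream of the receptors. Its brighter probe read -3.5 and -3.07 in control, -3.54 and -3.74 at day 4, -2.37 and -5.03 at day 7, and -6.66 at day 10. The 2 day 7 mice lay on either side of all control and day 4 values, and 4 of the 7 arrays were well above background, 1 of them in control and 1 at day 7. Neither day 4 (-0.35 ± 0.79, adjusted p = 0.99) nor day 7 (-0.41 ± 0.79, adjusted p = 0.8, 95% interval from -2.35 to 1.52) passed against control. Leaving out day 7 replicate 2 turned the day 7 difference to 0.91 (adjusted p = 0.14). At day 10 Nkd1 was at least 2.37-fold lower than control (adjusted p = 0.046). That fold follows the convention above and is not a strict limit, since the control array at -3.5 was itself not well above background. The day 10 call of Nkd1 held in 8 of 16 alternatives. It ended without control replicate 1 (0.093), without control replicate 2 (0.11) and without either day 4 replicate (0.092), all as adjusted p. For a further Nkd1 probe, all arrays were short of well above background.

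Rnf43 and Znrf3 encode related membrane ubiquitin ligases that remove Frizzled receptors from the cell surface. Rnf43 levels were 3.34 and 3.42 in control, 2.97 and 3.33 at day 4, 1.38 and 2.19 at day 7, and 2.47 at day 10. The day 7 arrays were the lowest, with the day 10 array between them and day 4. Rnf43 fell at day 7 by 1.59 ± 0.32, which is 3.02-fold (adjusted p = 0.039). Its differences of -0.23 ± 0.32 at day 4 and -0.91 ± 0.39 at day 10 did not pass, with adjusted p of 0.97 and 0.14. Day 10 lay above day 7 by 0.68 ± 0.39, which was not called (adjusted p = 0.29, 95% interval from -0.27 to 1.64). The day 7 call held in 9 of 18 alternatives. Its adjusted p was 0.15 and 0.12 without control replicate 1 or 2, 0.082 without either day 4 replicate, 0.11 without day 7 replicate 1, and 0.054 and 0.052 with scaling to probes detected on all arrays and with quantile normalization.

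Znrf3 was dim but well above background on every array. Its level was -3.66 and -3.38 in control, -3.5 and -3.69 at day 4, -3.57 and -3.68 at day 7, and -4.2 at day 10. The control, day 4 and day 7 arrays overlapped, and only the day 10 array stood below them. Its differences from control of -0.07 ± 0.22, -0.11 ± 0.22 and -0.68 ± 0.27 at the successive times had adjusted p of 1, 0.81 and 0.12. The 95% interval at day 7 ran from -0.65 to 0.43, whereas that of Rnf43 ran from -2.38 to -0.81. The difference between the responses of these genes was not tested.

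Notum encodes a secreted enzyme that strips the lipid from Wnt ligands and so inactivates them. Its level was 5.14 and 4.16 in control, 3.1 and 3.3 at day 4, 3.25 and 2.87 at day 7, and 1.86 at day 10. All knockout arrays lay below both controls, the day 4 and day 7 arrays overlapped, and the SD between the 2 controls was 0.69. The day 4 difference was -1.45 ± 0.36, with an unadjusted p of 0.00695 and an adjusted p of 0.46 in limma. The day 7 difference was -1.59 ± 0.36, just short of a call (adjusted p = 0.055). Without control replicate 2 the day 7 difference was -2.08 and passed (adjusted p = 0.035), and it also passed with normexp background correction (0.014) and array median scaling (0.044). At day 10 Notum fell by 2.79 ± 0.45, which is 6.9-fold (adjusted p = 0.0062), and it was called in 16 of 17 alternatives, the exception being the fit of only the 2 groups compared.

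Wif1 encodes a secreted protein that binds Wnt ligands. Its level was -4.41 and -5.06 in control, -4.06 and -4.5 at day 4, -6.45 and -6.34 at day 7, and -6.77 at day 10. It was well above background on 1 control and 1 day 4 array, and on none at day 7 or day 10, so no order is read among the later arrays. Before scaling its signal was 14.8 and 11.1 in control, 3.81 and 4.46 at day 7, and 4.98 at day 10. The fitted difference of 0.45 ± 0.30 at day 4 was not called (adjusted p = 0.91), whereas those of -1.66 ± 0.30 at day 7 and -2.04 ± 0.37 at day 10 were, with adjusted p of 0.028 and 0.0096. These fitted values compare arrays at or near background and are not measured sizes, and no fold is given because the control mean itself lay near the background level. With normexp background correction, whose offset shrinks the differences of dim probes by construction, the day 7 difference was -0.31 (adjusted p = 0.53). The day 7 call also ended without control replicate 1 (0.13), without either day 4 replicate (0.06), and without day 7 replicate 1 (0.12) or 2 (0.064). The day 10 call held in 16 of 16 alternatives. This count adds no support for a fall, since Wif1 passed the filter only through 1 control and 1 day 4 array. The alternative that required all arrays to be well above background left Wif1 out.

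Apcdd1 encodes a membrane glycoprotein that inhibits Wnt signalling at the receptor. Its probe read -5.23 and -6.47 in control, -5.87 and -4.89 at day 4, -5.86 and -6.08 at day 7, and -6.58 at day 10. None of these was well above background, so no order of the groups is read from them.

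Sp5 encodes a zinc finger transcription factor that is a direct target of beta-catenin and in turn represses Wnt target genes. Its level was 3.49 and 3.43 in control, 2.79 and 3.66 at day 4, 1.62 and 1.89 at day 7, and -0.19 at day 10. Control and day 4 overlapped, day 7 lay below both, and the day 10 array lay lower still. The day 4 difference of -0.23 ± 0.33 was not called (adjusted p = 0.97). Sp5 fell by 1.71 ± 0.33 at day 7, which is 3.27-fold (adjusted p = 0.034), and at day 10 it fell by 3.65 ± 0.40, which is 12.6-fold (adjusted p = 0.0017). The day 7 call ended without control replicate 1 (0.15), control replicate 2 (0.1), day 7 replicate 1 (0.14) or day 7 replicate 2 (0.065), all as adjusted p. The day 10 call held in 17 of 17 alternatives, with differences from -3.83 to -3.42.

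Lef1 encodes a DNA-binding partner of beta-catenin that is also induced by the pathway. Its level was -5.81 and -5.75 in control, -2.63 and -4.77 at day 4, -5.25 and -3.68 at day 7, and -6.78 at day 10. Only 1 day 4 array and 1 day 7 array were well above background, and these 2 mice stood apart from their partners. Its day 4 difference was 2.08 ± 0.78, at least 1.87-fold, with an unadjusted p of 0.0364 and an adjusted p of 0.75 in limma. Its day 7 difference was 1.31 ± 0.78, which did not pass either (adjusted p = 0.38). Both day 10 and control were below background, so no fold between them is given.

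Tnfrsf19, also known as Troy, encodes a receptor of the tumour necrosis factor family that marks intestinal stem cells and is a Wnt target. Its brighter probe read -3.73 and -2.66 in control, -1.89 and -2.54 at day 4, -2.88 and -2.33 at day 7, and -5.93 at day 10. The control array at -3.73 was not well above background, so the fold given for day 10 follows the convention above and is not a strict limit. Both day 4 arrays were above both controls, day 7 overlapped with control and with day 4, and day 10 was far below all others and below background. Neither the day 4 difference of 0.98 ± 0.44 nor the day 7 difference of 0.59 ± 0.44 passed, with adjusted p of 0.84 and 0.48. At day 10 Tnfrsf19 was at least 2.52-fold lower than control (adjusted p = 0.013). That call ended with only the 2 groups compared (adjusted p = 0.059) and with normexp background correction, where the difference was -0.91 (adjusted p = 0.05 after rounding). For a further Tnfrsf19 probe, too, no array was well above background.

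**Figure D2:**
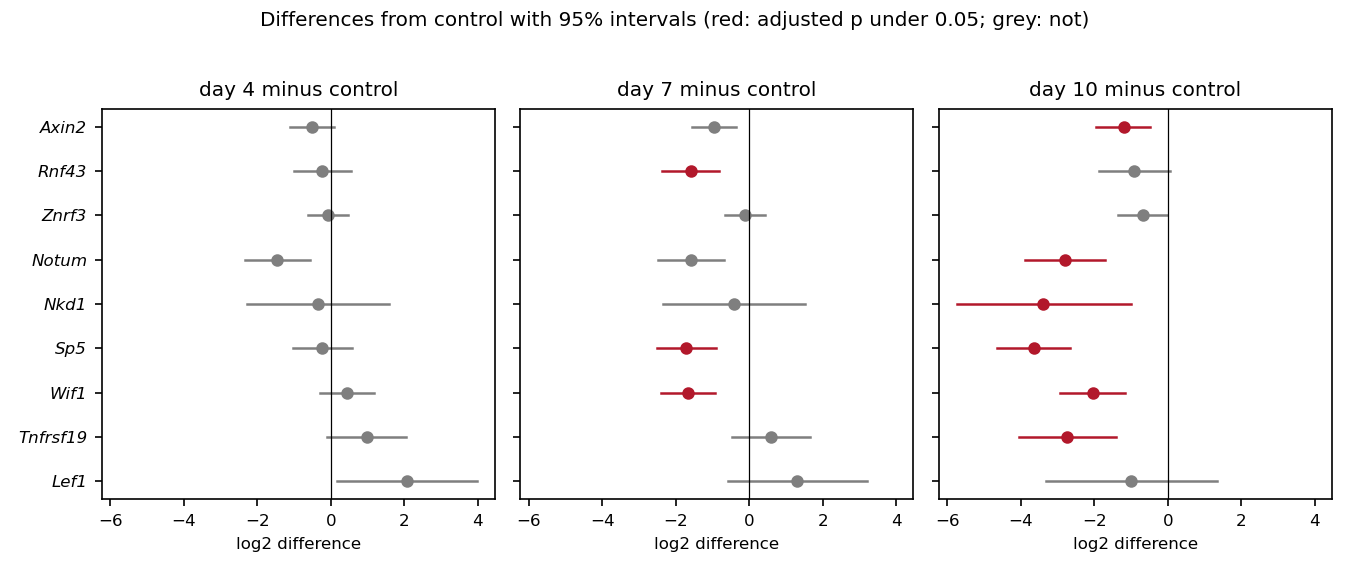
Difference of each gene from control (x axis, log2) at day 4, day 7 and day 10, with bars for the 95% interval of the fit over all arrays. Red marks an adjusted p under 0.05, which holds for no gene at day 4, for Rnf43, Sp5 and Wif1 at day 7, and for 6 genes at day 10.

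Steps between time points were also read for each gene, and differences between genes were not tested. From day 4 to day 7 Wif1 was the only called gene of the 9, with a fitted difference of -2.11 ± 0.30 (adjusted p = 0.028) that is not a measured size, since 1 of the 4 arrays was well above background. This 1 of 9 stands beside 2.67% of all features called, 1.43% lower and 1.24% higher. That call ended without day 4 replicate 1 or 2 (0.16 each) and without day 7 replicate 1 (0.12) or 2 (0.053). Rnf43 differed by -1.36 ± 0.32 (adjusted p = 0.096) and Sp5 by -1.48 ± 0.33 (adjusted p = 0.084) over the same step, and without day 7 replicate 2 Rnf43 passed (-1.77, adjusted p = 0.042). From day 7 to day 10 Sp5 fell by 1.94 ± 0.40 (adjusted p = 0.023), and Tnfrsf19 was at least 3.8-fold lower (adjusted p = 0.0099). These 2 of 9 genes stand beside 17.9% of all features called, 10.7% lower and 7.2% higher. Without day 7 replicate 2 the Sp5 step did not pass (-1.81, adjusted p = 0.071), while that of Nkd1 did (-4.29, adjusted p = 0.0056), as it also did without day 7 replicate 1 (-1.63, adjusted p = 0.039). Axin2 differed by -0.24 ± 0.30 (adjusted p = 0.64) over this last step and Notum by -1.2 ± 0.45 (adjusted p = 0.12).

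The rest of the pathway was read from 4 lists, and no gene of any of them was called at day 4. The counts below stand beside all features, of which 4.5% were called lower and 2.96% higher at day 7. At day 10 these shares were 17.6% lower and 10.4% higher. Among other Wnt targets, 14 of 17 listed genes entered the fit. At day 7, 2 fell and none rose (median difference -0.32), and at day 10, 3 fell and 3 rose (median difference -0.36). Ascl2, a transcription factor of crypt base stem cells, had a mean level of 2.65 in control, 1.88 at day 4, -0.09 at day 7 and -0.85 at day 10. It fell by 2.75 ± 0.28 at day 7 (adjusted p = 0.0056) and fell by 3.50 ± 0.34 at day 10 (adjusted p = 0.0011). Cdx1, an intestinal homeobox factor, fell by 0.98 ± 0.20 at day 7 (adjusted p = 0.042, called in 6 of 18 alternatives and not without any single control, day 4 or day 7 array, at 0.076 to 0.2). At day 10 Cdx1 fell by 2.85 ± 0.25 (adjusted p = 0.00078).

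At day 10 Smoc2, a secreted matrix protein of crypt base stem cells, fell by 4.33 ± 0.47 (adjusted p = 0.0016), after a mean level of 3.23 at day 7 against 3.54 in control. Sox4, a transcription factor of progenitor cells, rose by 3.39 ± 0.29 (adjusted p = 0.00075), although its day 7 mean of -0.87 was below the control mean of 0.19. Myc, which drives cell growth, rose by 3.69 ± 0.51 (adjusted p = 0.0038), and Ccnd1, the cyclin D1 gene, rose by 2.49 ± 0.69 (adjusted p = 0.041). The called genes of this list lay on both sides of control at day 10, beside 17.6% of all features called lower and 10.4% higher. The Ccnd1 call ended without control replicate 1 (0.08) or 2 (0.11), and with array median scaling (0.056).

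Of 21 other inhibitors 9 entered the fit. At day 7, 2 fell and 1 rose (median difference -0.16), and at day 10, 2 fell and 2 rose (median difference 0.09, and -0.14 to 0.33 over the alternatives). Sfrp5, a secreted decoy for Wnt ligands, had a mean level of 1.47 in control, -0.60 at day 4, -3.53 at day 7 and -5.47 at day 10. It fell by 5.0 ± 0.42 at day 7 (adjusted p = 0.0036), with 1 of the 2 arrays well above background, and was at least 64.1-fold lower at day 10 (adjusted p = 0.00051). Dkk4, which blocks Lrp receptors and is a Wnt target itself, fell by 2.57 ± 0.34 at day 7 (adjusted p = 0.011, and 0.061 without control replicate 1) and was at least 6.49-fold lower at day 10 (adjusted p = 0.00082). Dact2, a Dishevelled-binding protein, rose by 1.89 ± 0.31 at day 7 (adjusted p = 0.021, and 0.051 to 0.1 without any single control or day 7 array). Kremen2 and Kremen1, receptors for the Dkk proteins, rose at day 10 by 3.21 ± 0.58 (adjusted p = 0.0094, and 0.064 with only the 2 groups compared) and 1.52 ± 0.33 (adjusted p = 0.019, and 0.068 without control replicate 2).

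Of 9 co-receptors and R-spondins 4 entered the fit. At day 7, 1 fell and none rose (median difference -0.23), and at day 10, 2 fell and none rose (median difference -0.95). With scaling to probes detected on all arrays, 1 rose and 1 fell at day 10 (median difference -0.72). Lgr5, the R-spondin receptor that marks crypt base stem cells, fell by 1.56 ± 0.29 at day 7 (adjusted p = 0.03) and was at least 17.6-fold lower at day 10 (adjusted p = 0.00026). Its day 7 call ended without control replicate 1 (0.14) or 2 (0.091), without either day 4 replicate (0.064) and without day 7 replicate 1 (0.1). Lrp6, the Wnt co-receptor, fell by 1.5 ± 0.38 at day 10 (adjusted p = 0.032, called in 11 of 17 alternatives, and 0.11 and 0.053 without control replicate 1 or 2). Of 28 transducers, from Dishevelled to the Tcf factors, 26 entered the fit. At day 7, 1 rose and none fell (median difference -0.08), and at day 10, 2 rose and 1 fell (median difference -0.21, and -0.38 to 0.02 over the alternatives). The co-repressor Tle4 rose by 1.35 ± 0.23 at day 7 (adjusted p = 0.022) and by 1.79 ± 0.28 at day 10 (adjusted p = 0.0056), while its relative Tle1 fell by 1.72 ± 0.36 at day 10 (adjusted p = 0.016, and 0.064 without control replicate 1). With the mean of its probes the day 10 difference of Tle4 was 0.75 and was not called (adjusted p = 0.089). The day 7 call of Tle4 held in 9 of 18 alternatives and ended without any single control, day 4 or day 7 array (0.051 to 0.13). Csnk1e, a casein kinase that acts on Dishevelled, rose by 2.10 ± 0.38 at day 10 (adjusted p = 0.0098).

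**Figure D3:**
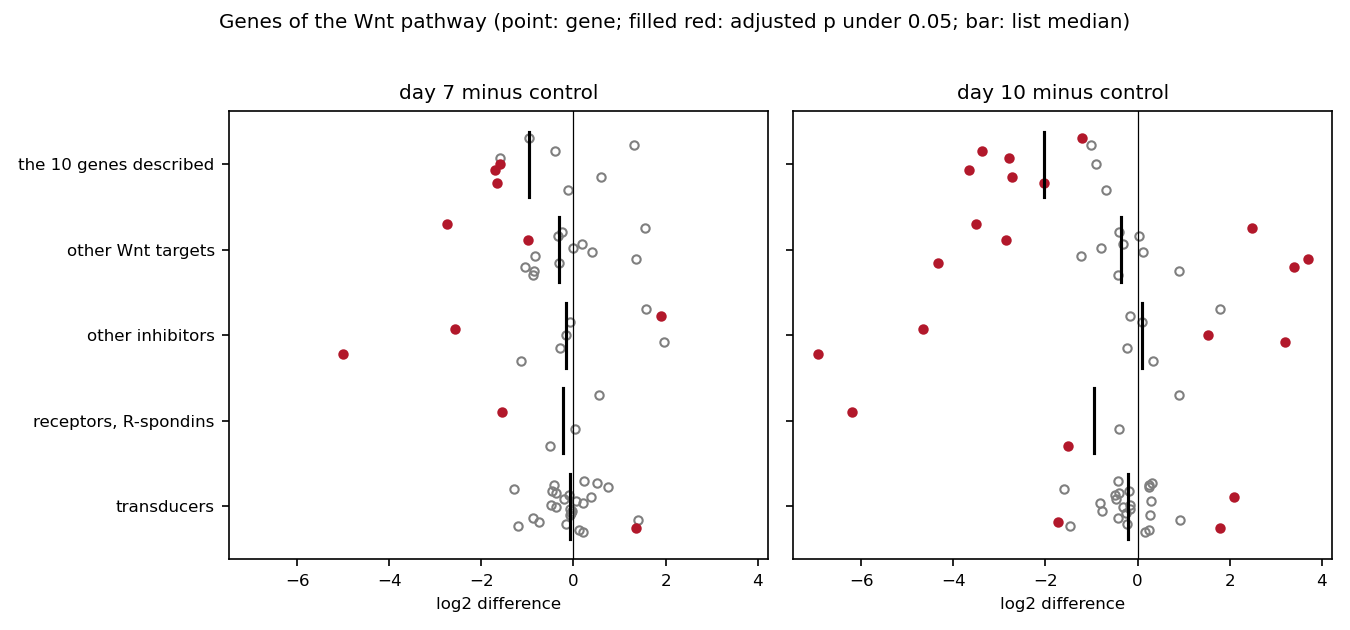
Difference from control (x axis, log2) of every fitted gene of the pathway at day 7 and day 10, 1 point per gene, grouped by role (y axis). Filled red points have an adjusted p under 0.05, and black bars mark list medians. The 10 genes described hold 3 red points at day 7 and 6 at day 10, all to the left of 0, whereas other targets at day 10 hold 3 on each side.

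The isolated cells were a mixture, and in bulk RNA fewer cells of a type and less RNA per cell cannot be told apart. Marker lists of crypt base stem cells and Paneth cells were lower at day 7 and day 10, whereas no marker of proliferating cells was called. The summed signal of 4 crypt base stem cell markers, as log2 relative to the array's 75th percentile, was 4.78 and 5.25 in control, 5.39 and 4.88 at day 4, 4.12 and 4.01 at day 7, and 2.98 at day 10, and 3 of these markers are genes of the pathway lists above. That of 4 Paneth cell markers was 9.51 and 8.92 in control, 8.9 and 8.91 at day 4, 7.79 and 8.01 at day 7, and 5.72 at day 10. Mmp7, a marker in this sum, is also on the list of other Wnt targets. Stem cell markers called lower numbered 2 of 4 at day 7 and 3 of 4 at day 10, and Paneth cell markers 1 of 4 and 3 of 4. Among all features 4.5% were called lower at day 7 and 17.6% at day 10. The part of these cells in the differences of the Wnt genes was not tested.

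Markers of other cell types also differed between arrays. None of 8 proliferation markers was called in any comparison, with summed levels from 6.28 to 6.96. All 6 enterocyte markers were called lower at day 10, with a summed level of 7.88 against 10.39 to 10.93 on the other arrays, and so were 8 of 9 T cell markers, with 3.01 against 5.38 to 5.88. Of 4 measured myeloid markers 2 were called higher at day 10. The marker counts of this paragraph stand beside 17.6% of all features called lower and 10.4% higher at day 10, and 4.5% lower at day 7. Of 5 B and plasma cell markers 4 entered the fit. Their summed level was 0.72 and 1.25 in control, -1.28 and -0.31 at day 4, -1.09 and 0.14 at day 7, and -0.31 at day 10. All knockout arrays therefore lay below both controls, from day 4 on, although none of the 4 fitted markers was called (median differences -1.33, -1.2 and -1.25). Of 8 fibroblast markers 3 entered the fit, with 1 called lower at day 7 and none at day 10. Their summed level was -1 and -1.35 in control, -0.97 and -1.45 at day 4, -2.29 and -1.69 at day 7, and -2.36 at day 10. Of 5 smooth muscle and 4 endothelial markers 2 each entered the fit, with none called. Their part in the results was not tested.

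**Figure D4:**
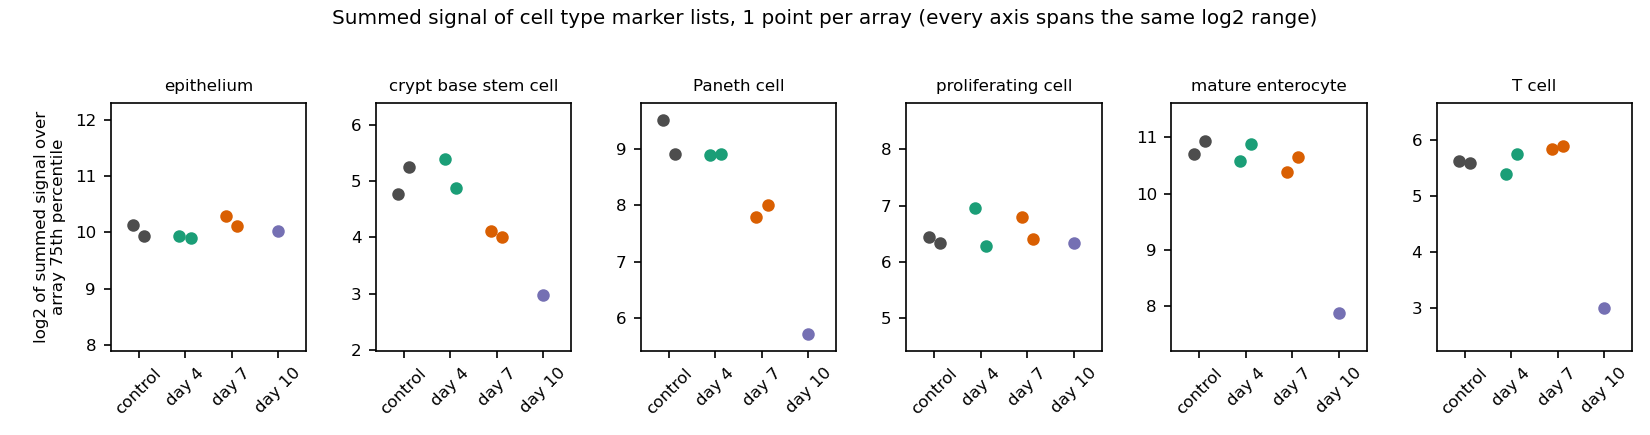
Summed signal of 6 marker lists on each array (y axis, log2 relative to the array's 75th percentile) by group (x axis), 1 point per mouse, with every axis spanning the same log2 range. Stem cell and Paneth cell markers are lower at day 7 and lowest at day 10, enterocyte and T cell markers are low only at day 10, and epithelial and proliferation markers stay within 1 log2 unit.

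The genes whose levels ran most alike to each called gene were sought among 11693 genes that were well above background on all 7 arrays, with the Pearson r over the 7 arrays as the measure. These values describe the arrays, in which the day 10 array lies far out for many genes, and carry no test. Sp5 ran most like Abcc2 (r = 0.997), a transporter of the apical membrane, then Rnf186 and Kif21b. Notum ran most like Tspan31 (r = 0.9958), BC004004 and Ndufa7, and Axin2 like Lmcd1 (r = 0.9892), Mrpl23 and Nrtn. Rnf43, lowest at day 7, ran most like Rgn and Stim1 (r = 0.9921 each) and Tbcb. The nearest genes were Ppwd1, Sfxn2 and Atp8a2 for Wif1 (r up to 0.9905), Serf1, Cdc123 and Ube2l3 for Tnfrsf19 (r up to 0.9811), and Zc3h18, Mef2a and Synpo2l for Nkd1 (r up to 0.9807). None of these genes belongs to the pathway lists. The search could not return the described genes themselves. It also left out pathway genes that were not well above background on every array, such as Lgr5, Dkk4 and Sfrp5.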

How the data were processed

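Total RNA of 7 mice was hybridised to 1-colour Agilent arrays (design 028005), and the authors deposited intensity values from Feature Extraction 11.5.1.1, per the file headers, as spot signals corrected for background and not scaled between arrays. The deposited series matrix held the same intensity (within 0.1%, for 100% of single-spot probes). The files gave transcript accessions without gene names, so probes were named through RefSeq (GRCm38.p6): 27509 of 55681 had a symbol. Log2 signals, computed from the deposited values, were averaged over spots without outlier marks, and each array's 75th percentile was subtracted. Probes well above background on at least 2 arrays were kept, the brightest standing for a gene. limma 3.58.1 (R 4.3.3) fitted the 4 group means to the 7 arrays together, with 2-sided tests and Benjamini-Hochberg adjustment, and was tested on simulated data. The replicates were different mice, per the design text. With 3 residual degrees of freedom, the number of arrays limits the precision.

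The genes and lists were chosen with earlier results of these data known. Named from other lists were up to 6 called genes with the smallest p, and, for likeness, 3 genes per called gene. The alternatives changed the background correction, scaling, filter, probe choice, source, arrays in the fit and block. normexp (offset 50) used median spot signals in place of mean signals.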

Additional observations from a re-analysis of the deposited data

Results flagged for a closer look

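Knockout arrays of different days differed for 3 genes, by a test of the difference itself within the same fit (limma, adjusted over all features). With 1 control group, this compares days of the knockout and not an effect of the deletion at each day. Sp5 was lower at day 10 than at day 7 by a log2 difference of -1.94 (adjusted p = 0.023). Tnfrsf19 was at least 3.8-fold lower at day 10 than at day 7 (adjusted p = 0.0099), and its fitted difference of -3.32 rests on a day 10 array below background. Wif1 was called lower at day 7 than at day 4 (adjusted p = 0.028), but its fitted difference of -2.11 is not a measured size, since 1 of the 4 arrays was well above background, and slide row cannot be told apart from that step. Day 10 is a single array for Sp5 and Tnfrsf19.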

How the results depend on the processing

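Each of 45 differences of the 9 genes was recomputed under up to 18 alternatives, which gave 699 values of the same direction and side of the threshold, 46 that lost and 10 that gained a call, and 17 of opposite sign. The cause of these changes was not tested. The count of called genes at day 7 (3) was 0 without a filter on dim probes, where more features were tested, 1 with only the 2 groups compared, and 0 to 3 when each array was left out. At day 10 (6) it was 3 when probes had to be well above background on every array, where fewer genes were tested, 3 with only the 2 groups compared, and 4 to 6 when each array was left out. From day 4 to day 7 (1) it was 0 with normexp, 0 without the filter, and 0 to 1 when each array was left out. From day 7 to day 10 (2) it was 1 when probes had to be well above background on every array, and 2 to 3 when each array was left out. Signs turned with normexp for Wif1 at day 4 (-0.05), Nkd1 at day 7 (0.16), and Znrf3 (0.17) and Nkd1 (0.25) from day 4 to day 7, and with quantile normalization for Wif1 from day 7 to day 10 (0.02). Leaving out each array gave -0.67 to 0.21 for Sp5 and -0.21 to 0.07 for Znrf3 at day 4, -0.25 to 0.03 for Znrf3 and -1.74 to 0.91 for Nkd1 at day 7, and, from day 4 to day 7, -0.13 to 0.06 for Znrf3, -0.33 to 0.05 for Notum, -1.39 to 1.27 for Nkd1 and -1.83 to 0.3 for Lef1. Replicate numbers are shared by the labels, and same-numbered arrays deviated together with correlations of only 0.01, 0.09 and 0.25, so the numbers are not known to pair the mice. With a replicate block the called genes numbered 0, 3 and 6 at day 4, day 7 and day 10, and no call of the 9 genes changed, while Cdx1 at day 7 (adjusted p = 0.058) and Lrp6 at day 10 (0.059) lost theirs. The block also added calls: other targets then numbered 1 higher and 2 lower at day 7 and 3 higher and 4 lower at day 10, and other inhibitors 2 higher and 2 lower at day 7 and 3 higher and 2 lower at day 10. Over all features the count at day 4 (8, all higher) was 1 to 27 over the alternatives, with 24 of the 27 higher under array median scaling. At day 7 (1847) it was 913 without the filter, 1067 with only the 2 groups compared and 522 to 2071 when each array was left out. At day 10 (6953) it was 4578 without control replicate 1. From day 4 to day 7 (661) it was 116 without the filter, 407 with only the 2 groups compared and 0 to 1097 when each array was left out, and 35.1% of calls were higher under array median scaling against 307 of 661. From day 7 to day 10 (4436) it was 2473 with only the 2 groups compared, and 51% of calls were higher under scaling to probes detected on all arrays against 1782 of 4436. Genes near background, Wif1, Lef1, Nkd1 and Tnfrsf19, are limited by signal over background.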
